A study of Rattus norvegicus with 6 samples.

Results

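Fatty acid oxidation and the targets of the nuclear receptor PPARA were followed as a set of 32 genes in the renal cortex of rats given carbon tetrachloride or its vehicle, corn oil. The genes were chosen by function: the carnitine shuttle, mitochondrial and peroxisomal β-oxidation, lipid uptake and storage, other known PPARA targets, and PPARA itself with its coactivator gene Ppargc1a. The rule of choice uses no measured value, though earlier results of these data were known when the set was drawn up. All 32 had a probe on the array, and 31 of them were bright enough to be tested among 31189 transcripts.

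The animals were male Sprague-Dawley rats (Crl:CD(SD)) bought at 5 weeks of age. The control group, 3 rats, received corn oil for 4 weeks, and the treated group, 3 other rats, received carbon tetrachloride at 100 mg/kg/day over the same period. The labels list no genetic modification, and both groups were kept on the same basal diet. The series' design text names benzyl acetate as the treatment, whereas carbon tetrachloride is named in the title, in the treatment protocol and in each sample's own labels, and is the name used here. Total RNA of the cortex of each rat was hybridised to its own 1-colour Agilent array, so that each value below stands for 1 rat.

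β-oxidation shortens fatty acids step by step in mitochondria and peroxisomes and yields acetyl-CoA and reduced electron carriers. Long-chain acids enter mitochondria as carnitine esters, and the proximal tubule, the main cell population of the cortex, relies on their oxidation for the energy that reabsorption takes. PPARA, a nuclear receptor activated by fatty acids and fibrate drugs, pairs with a retinoid X receptor on DNA and raises the transcription of many genes of these routes. Carbon tetrachloride is a solvent best known as a liver toxicant, which cytochrome P450 enzymes turn into a reactive radical.

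Values are given as log2 of the processed spot signal minus the 75th percentile of the same array, so a difference of 1 is a 2-fold difference in signal and a value below 0 lies under that percentile. Each gene was read from its brightest probe. Values of different genes come from different probes and are not compared with each other. Between 68.5% and 72.1% of the probes of an array were well above background. Correlations between arrays were 0.9917 to 0.9932 within corn oil, 0.9914 to 0.9928 within carbon tetrachloride and 0.9907 to 0.9937 between the groups. Slide 1 held the 3 controls in its first row and treated replicates 1 and 2 in another row. Carbon tetrachloride replicate 3 was alone on slide 2, which had its own scan. Treatment and row within slide 1 cannot be told apart. In whole cortex, fewer cells of a type and less RNA per cell cannot be told apart either.

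PPARA and its partner receptor are known to bind a pair of AGGTCA hexamers separated by 1 base. This motif, AGGTCANAGGTCA, was searched on both strands in the RefSeq promoter windows of the assembly GRCr8, each running from 250 bases before to 50 bases after a gene's start. A window was found for 27 of the 32 genes. None of the 27 held the motif exactly, a match that 0.0538% of all 33469 windows held. With up to 2 mismatches among the 12 fixed letters, 5 of the 27 genes (18.5%) held it, against 3.77% of all windows. Genes of the set were counted by gene, over any window they had, while the shares of all windows are per window, so the units differ. A single AGGTCA hexamer was present in 4 of the 27 genes, against 16.2% of all windows, and such a hexamer may be part of a match to the longer motif. The sequences of the 5 matches are shown, each being the stretch with the fewest mismatches to the motif in its gene's window. A match is a description of letters, not a measured binding site. The match is in capitals, and each sequence reads 5′ to 3′ on the strand of its gene. In Acadvl and Fabp1 the match had 1 mismatch, and in Fabp1 it ran on the opposite strand, so that the capitals show its reverse complement. The windows of these genes are printed up to the start site.

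Acadvl, chr10:55236706-55236955, minus strand: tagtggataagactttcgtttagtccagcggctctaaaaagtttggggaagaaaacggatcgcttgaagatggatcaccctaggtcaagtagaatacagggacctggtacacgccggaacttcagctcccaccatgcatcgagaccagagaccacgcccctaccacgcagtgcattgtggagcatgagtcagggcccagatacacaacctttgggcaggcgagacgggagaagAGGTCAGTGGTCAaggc
Fabp1, chr4:104749090-104749339, plus strand: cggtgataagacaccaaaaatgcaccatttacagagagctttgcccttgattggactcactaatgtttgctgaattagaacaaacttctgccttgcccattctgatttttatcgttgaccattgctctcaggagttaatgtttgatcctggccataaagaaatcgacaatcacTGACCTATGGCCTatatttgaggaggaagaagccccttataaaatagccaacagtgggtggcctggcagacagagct

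The 3 other matches had 2 mismatches each. Those of Crat and Ucp3 are printed with 20 bases on either side. That of Slc25a20 begins 15 bases past the start site, not upstream of it, and is printed without its surroundings.

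Crat, chr3:34087290-34087342, minus strand: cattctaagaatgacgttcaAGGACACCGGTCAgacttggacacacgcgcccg
Ucp3, chr1:164227833-164227885, plus strand: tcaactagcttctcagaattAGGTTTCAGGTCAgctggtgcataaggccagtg
Slc25a20, chr8:118243588-118243600, plus strand: AGGTGAAAGGTCG

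No gene of the set passed the test for a difference between the groups. Counted with limma at a Benjamini-Hochberg adjusted p under 0.05 over all transcripts, 0 of 31 genes passed, against 1 of 31189 transcripts (0.00321%). The lowest adjusted p in the set was 0.791. At an unadjusted p under 0.05, 1 of the 31 genes (3.23%) was called, namely Ucp2, against 6.28% of all transcripts (3.64% on the higher side, where Ucp2 lay, and 2.64% on the lower). In none of the 31 did all 3 treated rats lie on 1 side of all 3 controls, which was the case for 12.8% of all transcripts.

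The differences were small. The fitted differences, treated minus control, ran from -0.51 for Pdk4 to 0.34 for Ucp2, with a median of -0.02, against a median of 0.007 over all transcripts. Of the 31 genes, 13 (41.9%) lay above 0 and 18 (58.1%) below, against 52.2% and 47.8% of all transcripts. No fitted difference reached 1.5-fold, a size that 3.09% of all transcripts reached. For 23 genes (74.2%) the whole 95% confidence interval lay within 1.5-fold in either direction, as for 73.0% of all transcripts. The 8 genes whose interval reached beyond 1.5-fold were Cpt1a, Acaa2, Ehhadh, Fabp1, Pdk4, Angptl4, Ucp2 and Ppara. With 3 rats a group, the data do not exclude differences up to the ends of those intervals.

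**Figure D1:**
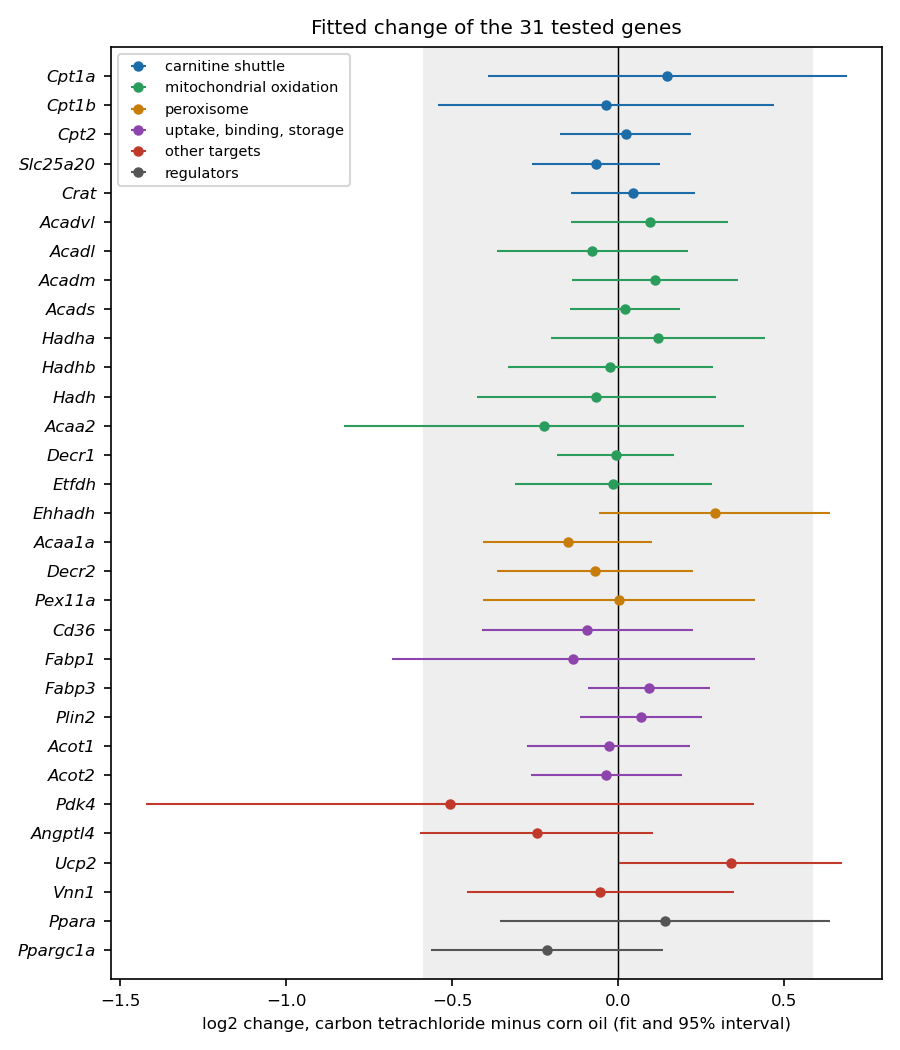
Fitted log2 difference between carbon tetrachloride and corn oil (x axis) for each of the 31 tested genes (rows, coloured by role), with its 95% confidence interval as a line and the grey band marking 1.5-fold in either direction. Points run from -0.51 (Pdk4) to 0.34 (Ucp2), and 23 of the 31 intervals lie wholly inside the band.

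The carnitine shuttle carries long-chain acyl groups into mitochondria, and none of its 5 genes passed the test. Cpt1a, the outer-membrane carnitine palmitoyltransferase that sets the rate of entry in kidney and liver, measured 3.04, 3.13 and 3.20 in the controls and 2.80, 3.34 and 3.67 in the treated rats. The treated rats spanned both the lowest and the highest value of the 6, so the control values fell inside the treated range. The fitted difference was 0.15 ± 0.22 (SE, adjusted p = 0.910), with an interval from 0.76-fold to 1.61-fold. Without carbon tetrachloride replicate 3, the rat on slide 2, it was -0.05, and without replicate 1 it was 0.38 (adjusted p = 0.847).

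Cpt1b, the muscle-type form of the same enzyme, measured 1.98, 1.48 and 2.25 in the controls and 2.04, 1.75 and 1.81 in the treated rats. All 3 treated values lay within the control range, and the difference was -0.04 ± 0.21 (adjusted p = 0.984). Cpt2, the inner-membrane transferase that restores acyl-CoA, measured 3.09, 3.27 and 3.20 in controls and 3.19, 3.15 and 3.29 in treated rats. The groups overlapped throughout, with a difference of 0.02 ± 0.08 (adjusted p = 0.971) and an interval from 0.89-fold to 1.16-fold.

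Slc25a20, the carrier that exchanges acylcarnitine for carnitine across the inner membrane, stood at 3.14, 3.29 and 3.29 in controls and 3.14, 3.13 and 3.25 in treated rats, a difference of -0.07 ± 0.08 (adjusted p = 0.887). Crat, which loads short acyl groups onto carnitine, stood at 6.27, 6.33 and 6.32 against 6.39, 6.24 and 6.43, a difference of 0.04 ± 0.08 (adjusted p = 0.925). Slc25a20 and Crat carried motif matches in the sequences above, and in both the treated rats overlapped the controls.

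The mitochondrial cycle was represented by 10 genes, of which 4 had a fitted difference above 0 and 6 below. The list's median was -0.01, and 0 of 10 passed. The acyl-CoA dehydrogenases take the first step and differ in the chain length they accept. Acadvl, for very long chains, measured 4.13, 4.15 and 4.21 in controls and 4.24, 4.12 and 4.43 in treated rats. Its treated rats held both the lowest and the highest value, and the difference was 0.09 ± 0.10 (adjusted p = 0.870). Its promoter held a motif match with 1 mismatch.

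Acadl, for long chains, measured 6.21, 6.28 and 6.54 against 6.28, 6.39 and 6.13. Control replicate 3 was the highest and carbon tetrachloride replicate 3 the lowest, the reverse of the order of these rats in Acadvl. Its difference was -0.08 ± 0.12 (adjusted p = 0.911). Acadm, for medium chains, measured 6.19, 6.45 and 6.40 against 6.39, 6.40 and 6.59. The lowest value was control replicate 1 and the highest carbon tetrachloride replicate 3, with a difference of 0.11 ± 0.10 (adjusted p = 0.856).

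Acads, for short chains, varied least of the 31 tested genes. It measured 5.49, 5.46 and 5.54 in controls and 5.52, 5.46 and 5.58 in treated rats. All 6 values lay within 1.09-fold of each other, the within-group SD was 0.05, and the difference was 0.02 ± 0.07 (adjusted p = 0.966). Its interval ran from 0.90-fold to 1.14-fold.

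Hadha and Hadhb encode the subunits of the mitochondrial trifunctional protein, which carries out the later steps for long chains. Their start sites lie 301 bases apart on opposite strands of chromosome 6 in GRCr8, so the genes point away from each other and their promoter windows share 200 bases. The shared stretch is shown because it lies upstream of both genes, between their start sites. It held no match to the motif with up to 2 mismatches on either strand, which says only that these letters are not in this window. No base is in capitals.

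Hadha and Hadhb, chr6:31907551-31907750, strand of Hadha: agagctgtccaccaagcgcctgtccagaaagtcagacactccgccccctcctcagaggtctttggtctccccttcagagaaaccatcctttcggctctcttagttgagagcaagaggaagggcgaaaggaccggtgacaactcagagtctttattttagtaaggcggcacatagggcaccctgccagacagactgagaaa

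Hadha measured 2.88, 3.04 and 3.29 in controls and 3.22, 3.05 and 3.31 in treated rats, a difference of 0.12 ± 0.13 (adjusted p = 0.880). Hadhb measured 2.47, 2.65 and 2.84 in controls and 2.62, 2.49 and 2.79 in treated rats, a difference of -0.02 ± 0.13 (adjusted p = 0.983). In both genes control replicate 1 was the lowest array, and control replicate 3 and carbon tetrachloride replicate 3 were the top pair. The other probes of Hadha did not keep this order. Carbon tetrachloride replicate 3 was the lowest array on 1 of them, with a difference of -0.04 ± 0.12. Control replicate 2 was the lowest on the other, with a difference of -6.1e-05 ± 0.09.

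Hadh, the dehydrogenase for shorter chains, measured 7.11, 7.26 and 7.29 against 7.32, 6.84 and 7.29. Carbon tetrachloride replicate 2 stood below the other 5 rats on this probe, and the difference was -0.07 ± 0.15 (adjusted p = 0.945). On its other probe control replicate 1 was the lowest array, with a difference of 0.06 ± 0.13. Acaa2, the thiolase that ends the cycle, had the widest spread of the mitochondrial genes. It measured 5.38, 5.87 and 5.66 in controls and 4.99, 5.40 and 5.86 in treated rats, a 1.85-fold range. The difference was -0.22 ± 0.24 (adjusted p = 0.880), and a second probe gave -0.23 ± 0.23 with the rats in the same order. On slide 1 alone it was -0.45 ± 0.20 (adjusted p = 0.729).

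The auxiliary enzymes Decr1 and Etfdh had the 2 smallest fitted differences of the mitochondrial list. Decr1, the reductase needed for polyunsaturated fatty acids, measured 5.53, 5.62 and 5.68 against 5.55, 5.62 and 5.64, with all treated values inside the control range. Its difference was -0.008 ± 0.07 (adjusted p = 0.992). Etfdh, which passes electrons from the dehydrogenases to ubiquinone, measured 3.11, 3.38 and 3.32 against 3.12, 3.19 and 3.45. Its difference was -0.02 ± 0.12 (adjusted p = 0.990), with an interval from 0.81-fold to 1.22-fold.

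Peroxisomes shorten very long chains and are multiplied in rat liver by PPARA activators. Of the 4 peroxisomal genes, 2 had differences above 0 and 2 below, and none passed. Ehhadh, the bifunctional enzyme of the classical peroxisomal pathway and a sensitive PPARA target, measured 2.81, 2.83 and 3.25 in controls and 3.16, 3.23 and 3.38 in treated rats. Control replicate 3 lay among the treated rats, and the other 2 controls lay below all of them. The difference was 0.29 ± 0.14 (unadjusted p = 0.087, adjusted p = 0.798), or between 0.96-fold and 1.56-fold. Without control replicate 3 it was 0.43 ± 0.10 (adjusted p = 0.570) with groups that did not overlap, as for 25.9% of all transcripts in those 5 arrays.

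Acaa1a, the peroxisomal thiolase, measured 6.67, 6.47 and 6.36 in controls and 6.25, 6.44 and 6.35 in treated rats. Control replicate 1 was the highest, and the other rats of the 2 groups overlapped. The difference was -0.15 ± 0.10 (adjusted p = 0.835) on this probe. Its 2 other probes gave 0.21 ± 0.12 and 0.20 ± 0.12, with control replicate 1 the lowest array on both, so the direction for this gene depended on the probe. Acaa1b is a close paralog, and which transcripts each probe captured was not tested.

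Decr2, the peroxisomal counterpart of Decr1, measured 3.30, 2.88 and 3.12 against 2.94, 3.07 and 3.07, a difference of -0.07 ± 0.12 (adjusted p = 0.923). Pex11a, a membrane protein that drives peroxisome division, measured 4.96, 5.52 and 5.44 against 5.35, 5.16 and 5.41. Control replicate 1 was the lowest on all 3 Pex11a probes, and the fitted difference was 0.002 ± 0.17 (adjusted p = 0.999).

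Genes of lipid uptake, binding, storage and hydrolysis numbered 6, and none passed. Their median difference was -0.03. Cd36, a fatty acid transporter of the cell surface, measured 2.53, 2.45 and 2.46 in controls and 2.11, 2.54 and 2.51 in treated rats. Carbon tetrachloride replicate 1 alone stood apart on this probe, and the difference was -0.09 ± 0.13 (adjusted p = 0.905). On its other probes a control was the lowest array, with differences of -0.02 ± 0.11 and 0.03 ± 0.13.

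Fabp1, the liver-type fatty acid binding protein, lay far below the 75th percentile and varied more. It measured -4.35, -4.56 and -3.99 in controls and -4.82, -4.34 and -4.13 in treated rats, a difference of -0.14 ± 0.22 (adjusted p = 0.920). The groups overlapped, and its other probe gave 0.27 ± 0.18, in the other direction. Its promoter was the other window with a 1-mismatch match. Fabp3, the heart-type form, measured 4.46, 4.62 and 4.46 against 4.56, 4.61 and 4.64, a difference of 0.09 ± 0.07 (adjusted p = 0.845).

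Plin2, which coats lipid droplets and follows their amount in many cells, measured 4.66, 4.65 and 4.57 in controls and 4.62, 4.67 and 4.79 in treated rats. The difference was 0.07 ± 0.07 (adjusted p = 0.879), and the interval ran from 0.92-fold to 1.19-fold. The acyl-CoA thioesterases Acot1, in the cytosol, and Acot2, in mitochondria, are neighbours in the rat genome and close in sequence. Acot1 measured 5.06, 5.27 and 5.23 against 5.02, 5.18 and 5.27, a difference of -0.03 ± 0.10 (adjusted p = 0.969). Acot2 measured 3.91, 4.11 and 4.02 against 3.87, 4.10 and 3.96, a difference of -0.04 ± 0.09 (adjusted p = 0.957). Carbon tetrachloride replicate 1 was the lowest and the groups overlapped in both, and whether their probes share transcripts was not tested.

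The remaining targets act on fuel choice, lipid handling and stress, and include Pdk4, the gene of the set that varied most within groups. Pdk4, the kinase that shuts pyruvate dehydrogenase when fatty acids are burned, measured -2.66, -1.80 and -2.22 in controls and -2.73, -2.09 and -3.39 in treated rats. Carbon tetrachloride replicate 3 was the lowest and control replicate 2 the highest, a 3.01-fold range, and the groups overlapped. The difference was -0.51 ± 0.37 (adjusted p = 0.836), with an interval from 0.37-fold to 1.33-fold. Within slide 1 it was -0.18 ± 0.32 (adjusted p = 0.918), and without carbon tetrachloride replicate 2 it was -0.83 ± 0.33 (adjusted p = 0.806).

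Angptl4, a secreted inhibitor of lipoprotein lipase, had the same highest and lowest rats as Pdk4. It measured 4.01, 4.44 and 4.13 in controls and 3.89, 4.13 and 3.82 in treated rats. The difference was -0.25 ± 0.14 (adjusted p = 0.827), and the second probe gave -0.22 ± 0.13. Within slide 1 it was -0.18 ± 0.16.

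Ucp2, an inner-membrane carrier of the uncoupling protein family, had the smallest p of the set. It measured -0.93, -0.80 and -0.89 in controls and -0.48, -0.81 and -0.31 in treated rats. Carbon tetrachloride replicates 1 and 3 lay above all controls, and replicate 2 lay just under the highest control. The difference was 0.34 ± 0.14 (unadjusted p = 0.048, adjusted p = 0.791), with an interval from 0.003 to 0.675 on the log2 scale. It was 0.23 ± 0.12 (unadjusted p = 0.12, adjusted p = 0.746) within slide 1 and 0.48 ± 0.09 (adjusted p = 0.661) without carbon tetrachloride replicate 2. The unadjusted limma p was also above 0.05 with quantile normalization (0.051), median scaling (0.063), no filter (0.061) and the replicate number as a block (0.081), and when any array other than carbon tetrachloride replicate 2 was left out (0.074 to 0.12).

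Ucp3, the muscle-enriched relative and neighbour of Ucp2, was the 1 gene of the set that could not be tested. Its brighter probe was well above background on 1 treated array and on no control array. Its values there were -8.09, -7.87 and -8.14 in controls and -5.72, -7.13 and -6.77 in treated rats, and its other probe was above background on no array. Since the bound set by background lies above the treated mean, no fold is given. Vnn1, a pantetheinase that returns vitamin B5 from coenzyme A breakdown, measured 4.11, 4.50 and 4.62 against 4.21, 4.56 and 4.31, a difference of -0.05 ± 0.16 (adjusted p = 0.963).

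**Figure D2:**
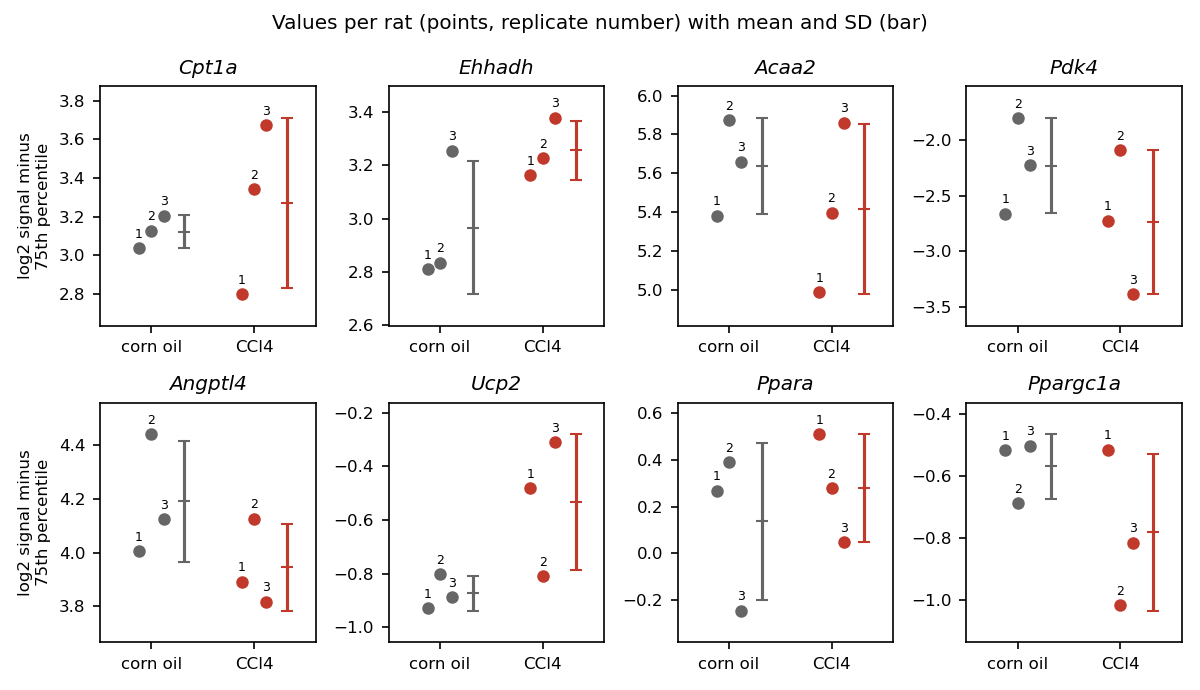
Log2 signal minus the array's 75th percentile (y axis, scaled to each gene) in each rat, numbered by replicate, for corn oil and carbon tetrachloride (CCl4), with the group mean and SD as bars (n = 3). Cpt1a, Acaa2 and Pdk4 spread widely among the treated rats, 2 of 3 treated rats lie above all controls for Ucp2, and control replicate 3 lies among the treated rats for Ehhadh.

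Of the regulators, Ppara itself measured 0.27, 0.39 and -0.25 in controls and 0.51, 0.28 and 0.05 in treated rats. Control replicate 3 was the lowest on both Ppara probes, and the groups overlapped. The difference was 0.14 ± 0.20 (adjusted p = 0.907), and 0.21 ± 0.18 on the second probe. Ppargc1a, the coactivator that links PPARA to mitochondrial biogenesis, measured -0.52, -0.69 and -0.50 against -0.51, -1.02 and -0.82. Carbon tetrachloride replicates 2 and 3 lay below all controls and replicate 1 among them, with a difference of -0.21 ± 0.14 (adjusted p = 0.834). Without replicate 1 the difference was -0.35 ± 0.11 (adjusted p = 0.847).

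Several genes had more than 1 probe, which gives a second reading on the same RNA. Of 13 genes with more than 1 tested probe, 6 had all probes on the same side of 0: Crat, Acadvl, Acaa2, Pex11a, Angptl4 and Ppara. In the other 7, Cpt1b, Hadha, Hadh, Acaa1a, Cd36, Fabp1 and Acot2, the probes differed in sign. None of the 18 additional probes tested had an unadjusted p under 0.05 or groups that did not overlap.

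The rats with the most high values and those with the most low values came from both groups. Carbon tetrachloride replicate 3 was the highest array for 13 of the 31 genes (41.9%), whereas it was the highest for 20.4% of all transcripts. Control replicate 1 was the lowest array for 11 of the 31 (35.5%), whereas it was the lowest for 14.2% of all transcripts. Control replicate 3 was the highest for 8 genes. Carbon tetrachloride replicate 1 was the lowest for 7 genes and replicate 2 for 6. Carbon tetrachloride replicate 3 is the array on slide 2, and the part of the slide in these counts was not tested. These are descriptions of correlated genes within 6 rats, with no test.

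**Figure D3:**
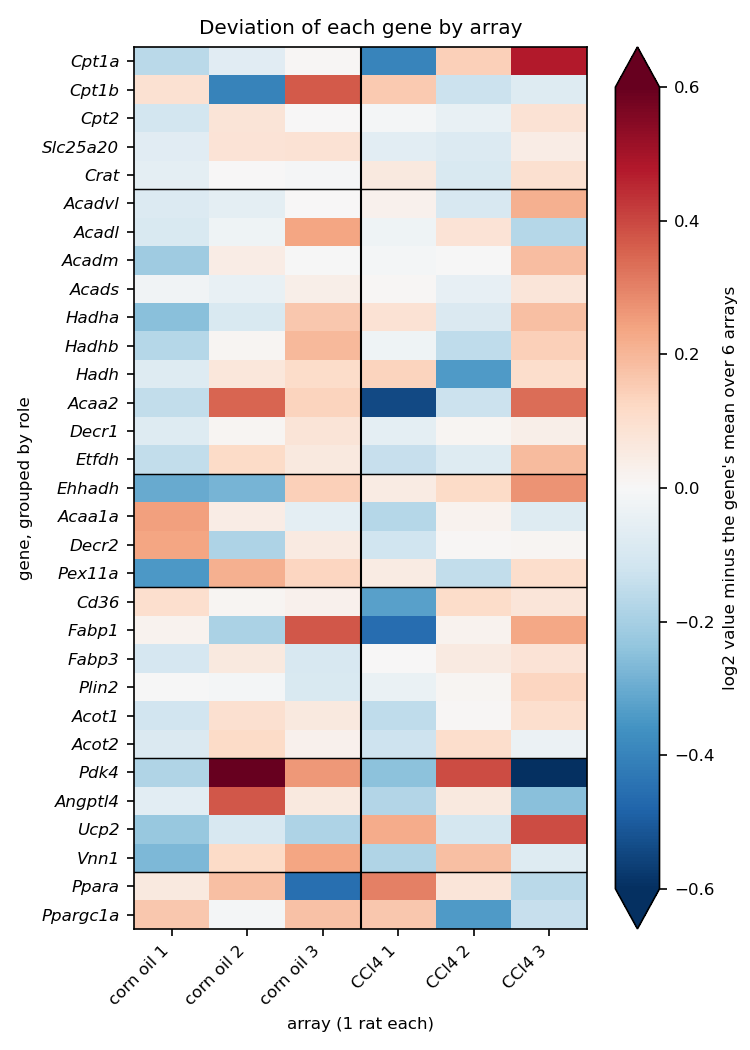
Deviation of each gene's log2 value from its mean over the 6 arrays (colour, capped at 0.6 either way) for the 31 tested genes (rows, grouped by role) in each rat (columns; CCl4, carbon tetrachloride). The column of carbon tetrachloride replicate 3 is mostly red and that of control replicate 1 mostly blue, while neither group of 3 columns has 1 colour throughout.

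The spread between rats of a group set what could be seen. The within-group SD of the set had a median of 0.17, from 0.05 for Acads to 0.55 for Pdk4, against 0.14 over all transcripts. Brighter probes had smaller spreads, with medians of 0.24, 0.13 and 0.09 in the dim, middle and bright parts of all transcripts, cut to equal size by mean signal. Of the 31 genes 26 belonged to the bright part, and the set's median of 0.17 lay above the 0.09 of that part. The 0.17 also covers the genes outside the bright part, and a median of the 26 alone was not taken. Pdk4 had a larger SD than 95.5% of transcripts, Acaa2 than 87.3%, Cpt1a than 84.1%, and Acads than 8.33%.

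**Figure D4:**
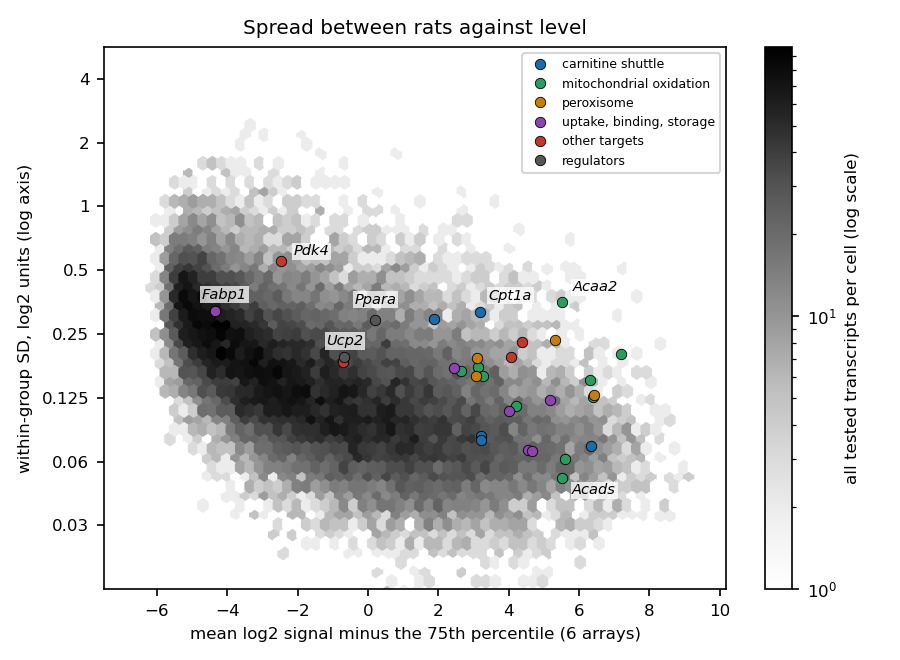
Within-group SD in log2 units (y axis, log scale) against mean log2 signal minus the 75th percentile (x axis) for the tested genes of the set (coloured points, by role) over the density of all tested transcripts (grey hexagons, log scale). Spread falls as signal rises; Acads (0.05) and Pdk4 (0.55) are the lowest and highest of the set.

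Beyond the set, 138 other genes of the same routes were listed, of which 126 were on the array and 122 were tested. None passed the adjusted threshold. At an unadjusted p under 0.05, 8 were higher and 5 lower, where 3.64% and 2.64% of all transcripts were. The groups did not overlap for 11 higher and 7 lower genes, against 7.50% and 5.30% of all transcripts. The median difference was 0.02, with 68 genes above 0 and 54 below. Named below are genes with the smallest p among those of a list with separate groups, and well known members whatever their values.

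Among 27 further genes of mitochondrial oxidation, Acad11, an acyl-CoA dehydrogenase for unusual substrates, measured 2.52, 2.51 and 2.46 in controls and 2.83, 2.80 and 2.95 in treated rats. All treated rats lay above all controls, with a difference of 0.36 ± 0.07 (adjusted p = 0.687). Acsl3, which activates fatty acids at lipid droplets, measured 1.06, 1.24 and 1.19 against 1.48, 1.40 and 1.46, a difference of 0.28 ± 0.08 (adjusted p = 0.753). Acsl1, the main long-chain acyl-CoA synthetase of oxidative tissues, differed by 0.05 ± 0.09 (adjusted p = 0.933).

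Among 28 further peroxisomal genes, Hsd17b4, the other bifunctional enzyme, differed by -0.08 ± 0.08 (adjusted p = 0.870). Acot4, a peroxisomal thioesterase next to Acot1 and Acot2, was lower in all treated rats than in any control, with a difference of -0.34 ± 0.13 (adjusted p = 0.791). The list held 2 genes with separate groups on the higher side and 1 on the lower, beside 7.50% and 5.30% of all transcripts.

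Of 6 genes of ketone body metabolism none passed the adjusted threshold, none had an unadjusted p under 0.05, and none had separate groups.

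In uptake and storage, with 16 genes tested, Mgll, which hydrolyses monoacylglycerols, was lower in all treated rats than in any control, with a difference of -0.23 ± 0.07 (adjusted p = 0.770). Lpl, the lipase of lipoproteins, differed by -0.11 ± 0.16 (adjusted p = 0.907). Of 25 regulators, 4 had separate groups on the higher side and 2 on the lower, beside 7.50% and 5.30% of all transcripts. Ppargc1b, the relative of Ppargc1a, measured 0.38, 0.25 and 0.60 in controls and 0.89, 0.70 and 0.77 in treated rats, a difference of 0.38 ± 0.11 (adjusted p = 0.765).

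Rxra, which encodes the DNA-binding partner of PPARA, was higher in all treated rats, by 0.25 ± 0.08 (adjusted p = 0.770). The sister receptors Ppard and Pparg differed by -0.19 ± 0.19 (adjusted p = 0.865) and -0.11 ± 0.21 (adjusted p = 0.931). Esrra, an orphan receptor that drives mitochondrial genes with the same coactivators, differed by -0.06 ± 0.07 (adjusted p = 0.885).

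Among 20 further PPARA targets, 3 had separate groups on the higher side and 1 on the lower, set against the same shares of all transcripts. Cyp4a1, a fatty acid ω-hydroxylase and a standard readout of PPARA activation in rat liver and kidney, differed by 0.03 ± 0.14 (adjusted p = 0.980). Pdk2, a kinase related to Pdk4, was higher in all treated rats by 0.26 ± 0.08 (adjusted p = 0.770). Fgf21, a hormone gene that PPARA induces in liver, was well above background on all 3 treated arrays and on none of the controls. Its measured means were -6.24 in controls and -5.21 in treated rats (limma, adjusted p = 0.770). With the background level of the control arrays set as the floor, this came to 1.58-fold. It was tested only because the treated arrays passed the filter. Its p and its place in the count of separate groups are therefore no support for a difference. With a different background correction its difference was 0.15, so the fold depends on how background is treated.

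The cortex label was checked against cell type markers. All 14 proximal tubule markers were well above background on all 6 arrays, and their summed signal, in units of the 75th percentile, was 2918 to 3076 in controls and 2992 to 3197 in treated rats. Lrp2 and Slc34a1, which define that cell, differed by 0.09 ± 0.09 and -0.03 ± 0.09. All 9 distal nephron markers were above background, at 556 to 698 in controls and 523 to 732 in treated rats. Markers of adipocytes, which share much of this gene set, were above background for 6 of 8 genes, at 2.62 to 3.91 and 3.33 to 4.17, with Lep above it on no array. Of 7 tested adipocyte markers 5 had a difference above 0, from -0.16 to 0.67 over the list. Of these, 1 had separate groups and an unadjusted limma p under 0.05, beside 12.8% and 6.28% of all transcripts. Adipoq differed by 0.06 ± 0.18.

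Muscle markers were above background for 6 of 10 genes, at 1.09 to 1.16 and 1.11 to 1.27, with Myh1 and Myl1 above it on no array. Of the 6 tested, 3 had a difference above 0 and 3 below, from -0.49 ± 0.43 for Ckm to 0.22, with a median of -0.02 and no separate groups. Liver markers were above background for 6 of 10 genes, at 2.95 to 3.38 and 2.77 to 3.23. Of the 6 tested, 3 had a difference above 0 and 3 below, from -0.57 to 0.80, and 2 of the higher ones had separate groups and an unadjusted p under 0.05. Ttr and Serpina1 were above background on no array, and Alb was above it on no control array and 2 treated arrays. Of 10 leukocyte markers, 9 had a difference below 0, 3 of them with separate groups and an unadjusted p under 0.05, and the summed signals of 69.0 to 96.2 and 69.4 to 78.3 overlapped. All 5 tested endothelial markers had a difference above 0, 2 of them with separate groups, and their sums overlapped at 24.3 to 29.8 and 26.5 to 29.5. Over all transcripts, 12.8% had separate groups and 6.28% an unadjusted limma p under 0.05. No marker of these lists passed the adjusted threshold. The part of these markers in the differences above was not tested.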

How the data were processed

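Scanner files of 6 arrays were used. Their processed signal is a background-subtracted linear intensity, deposited by the authors and extracted with Agilent Feature Extraction 10.7.1.1 per the file headers (10.7 per the submitters' processing notes). The series' value table, also deposited by the authors, is that intensity divided by 1 factor per array (1015 to 1092). It served as an alternative. The signal was taken to log2 here, and each array's 75th percentile was subtracted. Control spots (1439) were left out. Of 61537 probes, 45.8% were named through RefSeq accessions. A gene took its probe with the highest mean signal, and was tested if 1 or both groups had it well above background on every array. limma 3.58.1 in R 4.3.3 (lmFit, eBayes, two-sided) was fitted to all 31189 transcripts with Benjamini-Hochberg adjustment. The script was tested on simulated data. The replicates are separate rats per the labels, and their number limits the precision.

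The 32 genes, the pathway lists and the markers were chosen with earlier results of these data known. Named genes are the 32, up to 2 per pathway list with the smallest p among those whose groups did not overlap, further genes of the pathway (Cyp4a1, Hsd17b4, Acsl1, Ppard, Pparg, Rxra, Esrra, Lpl) and 5 markers. Some genes that this rule names are not reported here. Whether replicate numbers pair the samples is not known. Same-numbered arrays had deviations correlated at -0.02, -0.10 and -0.08, and differently numbered arrays at -0.04 to 0.13. Deviations from the mean of a small group depend on each other, so these correlations cannot exclude pairing. The main fit treated the samples as unpaired. Alternatives covered background correction, scaling, filter, probe rule, variance model, replicate and slide blocks, and leaving out each array.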

Additional observations from a re-analysis of the deposited data

How the results depend on the processing

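None of the 31 genes passed an adjusted p of 0.05 in any of the 18 settings (adjusted p 0.570 to 1.00), and the median difference stayed between -0.07 and 0.03. Of 527 differences of the set under alternatives, 482 kept their sign, and no reversed value exceeded 0.171 in size. This count overstates stability. The filter settings, the variance model and the replicate block left each gene's estimate as in the main fit, so those signs could not turn. Fitting slide 1 alone uses the same arrays as dropping the array on slide 2, so that fit was counted more than once. The slide block gave the same estimate too (Cpt1a, -0.052). The count over all transcripts was 1 in the reported fit and 0 with the normexp background, without a filter, with the filter on all 6 arrays, with trend and robust variance, with the replicate block, with the slide block and within slide 1. Leaving out 1 array gave 0 to 3 transcripts. Genes of the set whose groups did not overlap numbered 1 with the normexp background (Ucp2), 1 without a filter (Ucp3) and, when 1 array was left out, 2, 3 and 3 without control replicates 1, 2 and 3 and 3, 6 and 0 without carbon tetrachloride replicates 1, 2 and 3. With 5 arrays, 20.5% to 25.9% of all transcripts did not overlap. With the replicate block no gene of the set passed the adjusted threshold, and at an unadjusted p under 0.05 Ehhadh (0.037) and Angptl4 (0.048) were called in place of Ucp2 (0.081). Blocking on the slide, or fitting slide 1 alone, turned the sign of Cpt1a (-0.052), Cpt2 (-0.017), Acads (-0.0105), Pex11a (-0.0502), Cyp4a1 (-0.0027) and Adipoq (-0.0023). The normexp background turned Cpt2 (-0.0114), Decr1 (0.0353) and Pex11a (-0.0164), and the mean over probes turned Cpt1b (0.0952), Acaa1a (0.0861), Fabp1 (0.0652), Acot2 (0.0192) and Lrp2 (-0.0424). The cause was not tested. Leaving out each array in turn turned the sign for the following, with lowest and highest values: Acadl -0.143 to 0.020, Acads -0.010 to 0.051, Acot1 -0.093 to 0.041, Acot2 -0.096 to 0.017, Acsl1 -0.0070 to 0.109, Adipoq -0.036 to 0.221, Cd36 -0.171 to 0.045, Ckm -0.739 to 0.0058, Cpt1a -0.052 to 0.384, Cpt1b -0.247 to 0.137, Cpt2 -0.028 to 0.065, Cyp4a1 -0.047 to 0.148, Decr1 -0.048 to 0.029, Decr2 -0.180 to 0.029, Etfdh -0.115 to 0.050, Fabp1 -0.285 to 0.059, Hadh -0.150 to 0.088, Hadhb -0.115 to 0.068, Lpl -0.245 to 0.0020, Pex11a -0.171 to 0.110, Ppara -0.050 to 0.268, Pparg -0.291 to 0.045, Slc34a1 -0.112 to 0.018, Vnn1 -0.203 to 0.052. Fgf21 and Ucp3 were limited by signal over background.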

Other observations

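Some further lipid genes, chosen after their values were seen, varied widely between rats. Ephx2, which encodes soluble epoxide hydrolase and responds to PPARA activators, measured 2.35, 2.34 and -1.79 in the controls and 1.5, 2.56 and 2.20 in the treated rats. Control replicate 3 stood far below the other 5, a 20.4-fold range, and the within-group SD of 1.73 was larger than that of 99.8% of transcripts. Acsm3, a medium-chain acyl-CoA synthetase, measured 2.5, 2.89 and 3.95 in controls and 2.83, 4.19 and 5.40 in treated rats. Its 7.47-fold range was spread over both groups, and its difference was 1.03 ± 0.71 (adjusted p = 0.835). Retsat, retinol saturase, measured 1.79, 3.54 and 3.54 against 2.05, 2.92 and 3.56, with replicate 1 of each group low. Rxrg, a retinoid X receptor gene, measured 2.45, 2.72 and 1.38 against 2.30, 2.55 and 2.55, with control replicate 3 below the other 5. Ephx2, Acsm3 and Retsat had 1 probe each, so no second reading of the same RNA was at hand.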
